A study of Mus musculus with 48 samples.

Results

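The genotype difference common to 3 treatments was examined in the amygdala of female mice heterozygous for a Brd1 deletion (Brd1+/-) and in their WT counterparts. The members were all 48 libraries of the series, 24 Brd1+/- against 24 WT, with 8 libraries in each of 6 groups. Mice of the C57BL/6NTac-Brd1 line, 8 to 11 weeks old, received saline (vehicle), imipramine (IMN) at 10 mg/kg or fluoxetine (FLX) at 5 mg/kg. The Brd1+/- mice carry, in all their cells, an allele from which loxP-flanked exons 3 to 5 were deleted, and the WT mice were litter-matched. All mice had been through behavioural testing, with forced swimming last, about 1 h before the brains were taken. Punches of the right amygdala hold neurons, glia and other cells together, so fewer cells of a type and less RNA per cell cannot be told apart.

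BRD1 is a scaffold protein that binds histones through its bromodomain and PHD fingers and joins histone acetyltransferases of the MYST family, such as KAT7 and KAT6A, to chromatin. Loss of a copy of such a scaffold is a dosage change, and the transcript of the targeted gene is its first readout. Imipramine, a tricyclic antidepressant, and fluoxetine, a serotonin reuptake inhibitor, raise monoamine signalling, and vehicle mice give the genotype difference without a drug. The 3 within-treatment comparisons share no library, so each is a separate set of mice for the same genotype.

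The deleted segment is shown first, because Brd1 was the gene with the clearest difference. Brd1 (ENSMUSG00000022387) lies on the minus strand of chr15:88687034-88734233 (GRCm38). In the annotated transcript Brd1-203, exon 3 spans chr15:88716906-88717062, exon 4 spans chr15:88713886-88714017 and exon 5 spans chr15:88713298-88713426. Exons are numbered as in Brd1-203; whether the study numbered them the same way is not stated. The 3 exons are coding throughout and together hold 418 bases, 8.11% of the 5152 bases of the transcript, written here in transcript orientation.
Brd1 exon 3: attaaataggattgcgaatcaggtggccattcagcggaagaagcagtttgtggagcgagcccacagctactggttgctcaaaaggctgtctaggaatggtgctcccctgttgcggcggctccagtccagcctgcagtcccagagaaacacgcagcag
Brd1 exon 4: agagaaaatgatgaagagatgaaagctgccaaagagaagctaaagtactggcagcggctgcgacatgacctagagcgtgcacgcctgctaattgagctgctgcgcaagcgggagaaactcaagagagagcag
Brd1 exon 5: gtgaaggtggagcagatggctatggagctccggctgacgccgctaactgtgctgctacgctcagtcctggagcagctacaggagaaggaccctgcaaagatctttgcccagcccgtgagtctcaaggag
Since 418 leaves a remainder of 1 on division by 3, joining exon 2 to exon 6 shifts the reading frame. In that join the first in-frame stop codon, in capitals, ends 52 bases into exon 6, after 472 codons against 1189 in the full coding sequence. The run shown starts with the last 24 bases of exon 2.
Brd1 exon 2 joined to exon 6: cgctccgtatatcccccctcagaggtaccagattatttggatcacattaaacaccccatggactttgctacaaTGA
The join was read from the reference and not from the libraries, and the deposited gene values do not separate the 2 alleles.

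Brd1 was lower in Brd1+/- mice under every treatment. Among vehicle mice the WT libraries ranged from 26.5 to 41.0 TPM (TPM, a length-normalised share of each library's transcripts; median 37.9), and the Brd1+/- libraries from 21.8 to 30.6 TPM (median 26.2). Among IMN mice WT libraries ranged from 31.9 to 41.0 TPM (median 37.3) and Brd1+/- libraries from 16.6 to 29.5 TPM (median 22.8). Among FLX mice WT libraries ranged from 24.9 to 39.3 TPM (median 33.1) and Brd1+/- libraries from 18.0 to 27.2 TPM (median 24.4). The genotypes did not overlap among IMN mice and overlapped among vehicle and FLX mice, while all 24 Brd1+/- libraries lay below the WT median of their own treatment. Mean Brd1 was 35.1 ± 4.37 TPM in WT and 24.3 ± 3.85 TPM in Brd1+/- mice (SD, n = 24 each), which is 30.9% lower. The mean was 27.1% lower in vehicle, 36.6% lower in IMN and 28.5% lower in FLX mice.

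**Figure D1:**
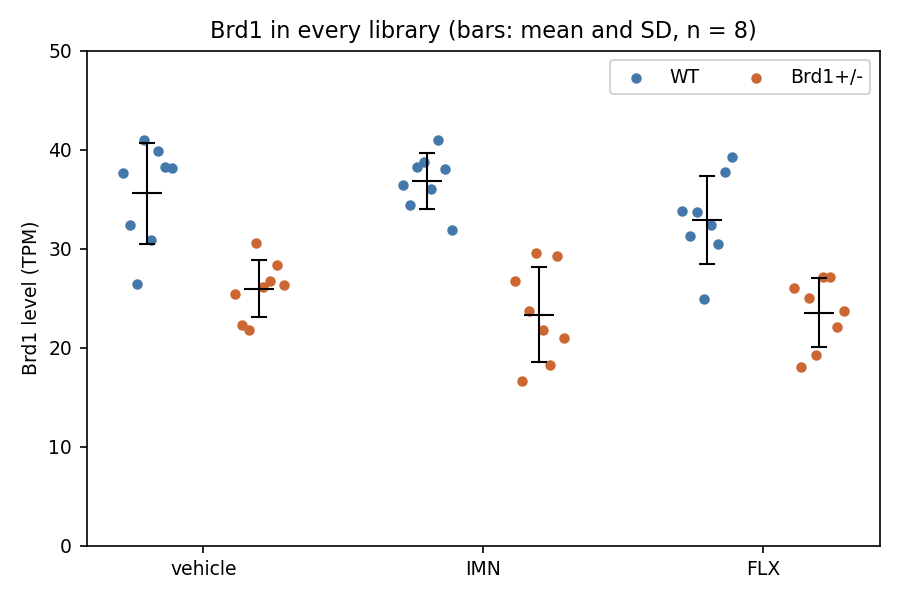
Brd1 level in TPM (vertical axis, from 0) in each of the 48 libraries, by treatment (horizontal axis) and genotype, with horizontal bars for the group mean and error bars for the SD (n = 8). Every Brd1+/- library lies below the WT median of its treatment, and the genotypes are fully apart only among the IMN mice.

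The pooled log2 difference of Brd1, Brd1+/- minus WT on log2(TPM + 0.1) with treatment as a block, was -0.54 ± 0.06 (SE), with an adjusted p of 8.90e-07 in limma. A permutation test of genotype within treatment gave p = 1e-05, the smallest that 100000 resamples can give (two-sided). Within vehicle, IMN and FLX mice the log2 differences were -0.45, -0.68 and -0.49. The exact permutation tests of 8 against 8 gave adjusted p-values over the 3 treatments of 0.00109, 0.000466 and 0.00109. The genotype difference of Brd1 was not shown to vary between treatments (limma, adjusted p = 0.695 for the interaction). Brd1 had the smallest p of all genes, and remained called when any of the 48 libraries was left out.

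Of 27944 genes tested, 6 passed an adjusted p under 0.05 in the pooled comparison (0.0215%), with 5 higher (0.0179%) and 1, Brd1, lower (0.00358%) in Brd1+/- mice. A gene was taken as shared when it was called, had the same sign in the 3 treatments and its smallest within-treatment difference was at least 0.5 of its largest. Brd1 and Gm37879 met this rule, with size ratios of 0.66 and 0.73 (0.00716% of genes tested). Both signs and sizes describe the same libraries that entered the pooled test, and so add no separate evidence. The same sign in the 3 treatments was found in 6561 genes (23.5%), and the sign with the size ratio in 911 (3.26%).

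**Figure D2:**
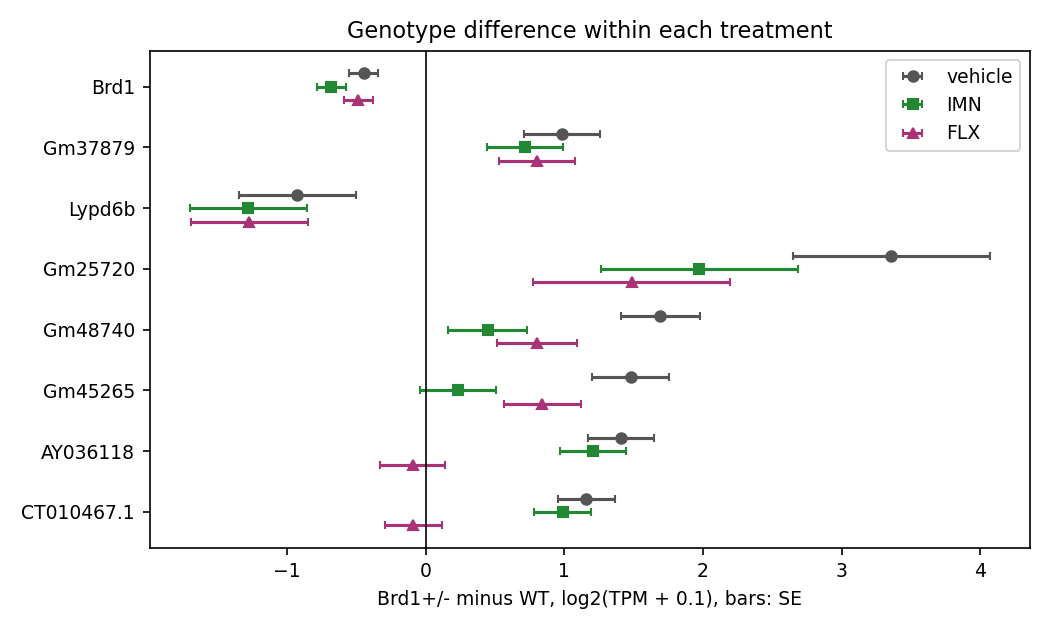
Log2 difference Brd1+/- minus WT (horizontal axis, log2(TPM + 0.1)) within vehicle, IMN and FLX mice, with error bars for the SE, for the 6 called genes and 2 genes just outside the threshold. Brd1, Gm37879 and Lypd6b keep their side of 0 and a similar size in the 3 treatments, whereas AY036118 and CT010467.1 lie near 0 in FLX mice.

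Gm37879 was higher in Brd1+/- mice, at very low levels. It is annotated in the TEC class, of transcripts still to be tested experimentally, on the minus strand of chr9:71939591-71941585, within an intron of Tcf12. It was listed at 0 in 20 of 24 WT libraries and in 5 of 24 Brd1+/- libraries, with highest values of 0.21 and 0.25 TPM. The log2 difference was 0.83 ± 0.16 (SE; adjusted p = 0.0179, limma), and 0.98, 0.72 and 0.81 in vehicle, IMN and FLX mice. It reached the minimum of 0.1 TPM in 1 WT and 12 Brd1+/- libraries, so it entered the test through the genotype where it was higher. It was called under 8 of the 17 other settings. Its call was lost with quantile normalization (0.64, adjusted p = 0.134), the replicate block (0.83, 0.0851), a term for the range of sample codes (0.79, 0.0612), without IMN mice (0.89, 0.0601), without FLX mice (0.85, 0.115) and without the 9 libraries rich in choroid plexus markers (0.68, 0.307), as log2 differences with limma's adjusted p. In the remaining 3, a minimum of 1 TPM, protein-coding genes alone and no vehicle mice, it was not among the genes tested.

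The other called genes had one sign but unequal sizes, or changed sign. Gm25720, a small nuclear RNA gene of 105 bases within an intron of Plec at chr15:76214101-76214205 (minus strand), had the largest pooled log2 difference among the 6 called genes, 2.27 ± 0.42 (SE; adjusted p = 0.0178, limma). It was listed at 0 in 22 of 24 WT libraries and 9 of 24 Brd1+/- libraries. All 8 Brd1+/- vehicle libraries held between 1.02 and 3.18 TPM, while 4 of 8 Brd1+/- libraries under IMN and 5 of 8 under FLX were listed at 0. Small nuclear RNA genes have near-identical copies, and how reads were split among them is not stated. Its sequence, shown because a gene this short receives large TPM values from few reads, is given by the annotation.
Gm25720: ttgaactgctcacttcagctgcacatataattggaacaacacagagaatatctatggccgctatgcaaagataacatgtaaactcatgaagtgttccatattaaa

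Gm48740, a lincRNA on chromosome 9, was higher by 1.69 in vehicle, 0.45 in IMN and 0.80 in FLX mice on the log2 scale (adjusted p = 0.0178, limma), with highest values of 0.23 TPM in WT and 0.55 TPM in Brd1+/- libraries. Gm45265, in an intron of Gpm6a, gave log2 differences of 1.48, 0.24 and 0.84 (adjusted p = 0.0482, limma). Gm25720, Gm48740 and Gm45265 reached 0.1 TPM in 2, 3 and 3 WT libraries and in 15, 17 and 13 Brd1+/- libraries, so they too entered through the genotype where they were higher.

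AY036118, a transcript of the ribosomal RNA repeats, was abundant and was called higher in Brd1+/- mice under vehicle and under IMN, with no such call under FLX. In vehicle mice it ranged from 368 to 770 TPM (median 452) in WT and from 941 to 3374 TPM (median 1107) in Brd1+/- libraries. In IMN mice it ranged from 253 to 493 TPM (median 351.02) in WT and from 626 to 1466 TPM (median 774) in Brd1+/- libraries. In FLX mice the ranges, 305 to 892 TPM and 301 to 901 TPM, were nearly the same. The genotypes did not overlap in vehicle or IMN mice. The pooled log2 difference was 0.84 ± 0.16 (SE; adjusted p = 0.0345, limma), and the differences varied between treatments, being 1.41, 1.21 and -0.10 (adjusted p = 0.0125 for the interaction, limma). CT010467.1, of the same repeats, gave 1.16, 0.99 and -0.09 and lay just outside the threshold (adjusted p = 0.0504, limma). Its span, chr17:39846353-39848827, holds that of AY036118, chr17:39847113-39848035, on the same strand, so it gives no separate evidence.

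Lypd6b was the protein-coding gene nearest to the threshold after Brd1. It encodes a membrane-anchored protein of the Ly6 family, some members of which bind nicotinic acetylcholine receptors. WT libraries ranged from 2.42 to 37.0 TPM (median 11.3) and Brd1+/- libraries from 1.37 to 15.96 TPM (median 5.03). The genotypes overlapped in every treatment, and 22 of 24 Brd1+/- libraries lay below the WT median of their treatment. Its log2 differences were -0.93, -1.28 and -1.27 in vehicle, IMN and FLX mice, with a pooled value of -1.16 ± 0.24 (SE; adjusted p = 0.0504, limma). It therefore did not pass the threshold, although it did under 6 of the 17 other settings, which were pseudocounts of 0.01 and 1 TPM, median-ratio scaling, no variance trend, array weights and the fit without vehicle mice (adjusted p from 0.0201 to 0.0474, limma).

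**Figure D3:**
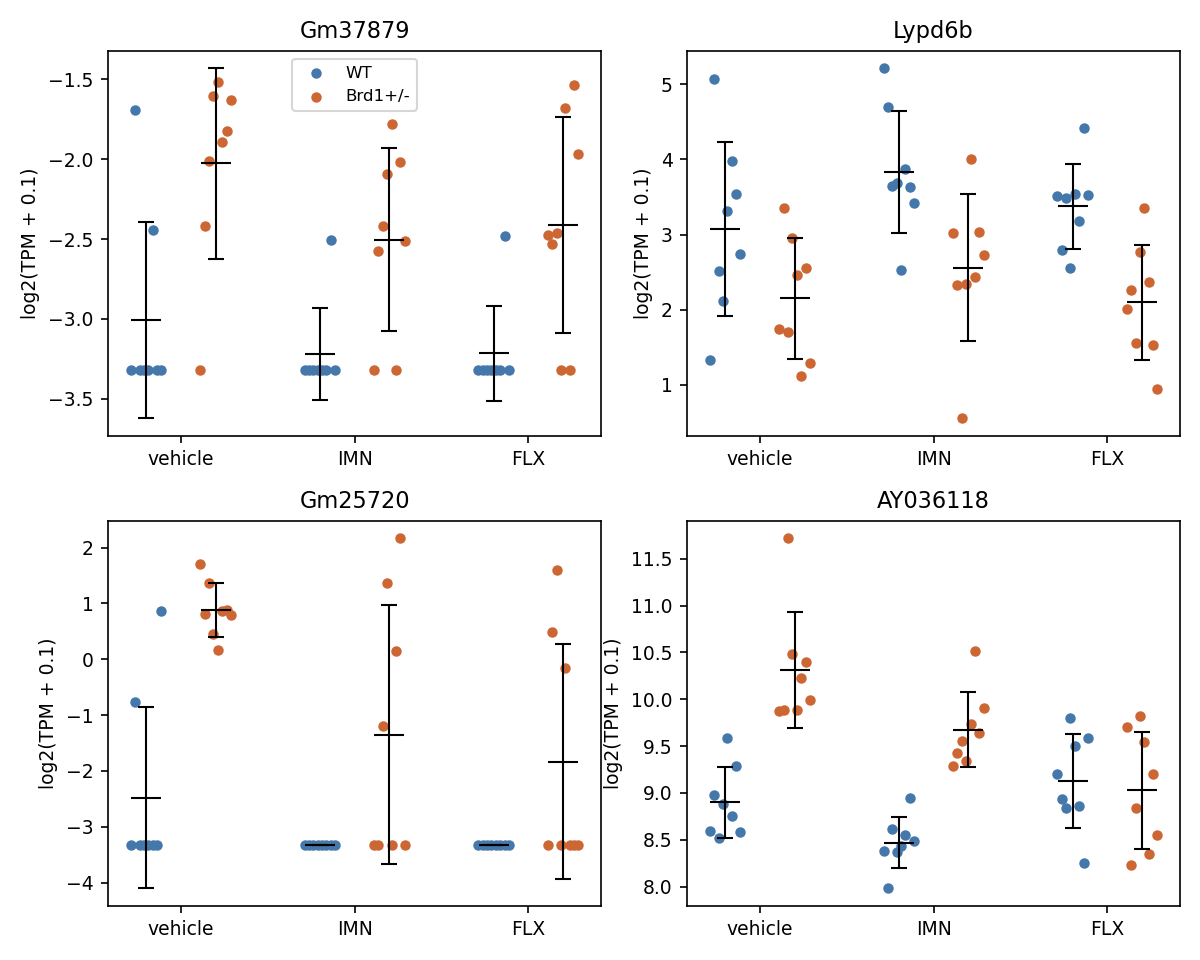
Values of Gm37879, Lypd6b, Gm25720 and AY036118 on log2(TPM + 0.1) (vertical axes) in each library, by treatment and genotype, with group mean and SD (n = 8). For Gm37879 and Gm25720 the lowest row of points holds libraries listed at 0, and for AY036118 the genotypes are apart in vehicle and IMN mice but not in FLX mice.

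Below the adjusted threshold, 659 genes had an unadjusted pooled p under 0.01 (2.36%), of which 91 had the same sign and a size ratio of at least 0.5 (0.326% of genes tested). Of the 91, 61 were higher (0.218% of genes tested) and 30 lower (0.107%), 41 were multi-exon protein-coding genes (45.1%), 54 averaged 1 TPM or more in 1 of the genotypes, and 18 had fewer than 8 libraries at 0.1 TPM in 1 genotype. The 41 protein-coding genes differed by 0.12 to 1.32 in absolute log2 size (median 0.28). Only Brd1 and Gm37879 of the 91 passed the adjusted threshold, so the values that follow are descriptive.

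Among the genes with higher values, Taok1, a kinase upstream of MAP kinase cascades, had a median of 37.5 TPM in WT and 42.6 TPM in Brd1+/- libraries, with log2 differences of 0.16, 0.13 and 0.16 in vehicle, IMN and FLX mice. Tmsb4x, which encodes the actin-binding thymosin beta-4, had medians of 865 and 1307 TPM and differences of 0.59, 0.30 and 0.52. Fgl2, a fibrinogen-like protein, gave 0.65, 0.85 and 0.60. Zfp146, a zinc finger protein, gave 0.11, 0.14 and 0.12, and Car5b, a mitochondrial carbonic anhydrase, 0.31, 0.41 and 0.31. The adjusted p-values of these 5 genes ran from 0.0809 to 0.300 in limma. Sp3os and D930015M05Rik overlap Sp3 and Cry2 on the opposite strand, and Taok1 overlaps Abhd15 in the same way. Without strand in the counting their reads cannot be told apart. Gm25776, Gm6749 and Gm15547 filled the remaining places, with pooled log2 differences of 2.05, 0.25 and 1.21.

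Among the genes with lower values, Mafg, a small Maf transcription factor, had medians of 99.1 TPM in WT and 78.7 TPM in Brd1+/- libraries and log2 differences of -0.20, -0.25 and -0.37; it shares exon bases with Sirt7 on the same strand. In 23 of 24 Brd1+/- libraries it lay below the WT median of its treatment. Incenp, a subunit of the chromosomal passenger complex, gave -0.22, -0.29 and -0.18. Dck, the deoxycytidine kinase of nucleoside salvage, gave -0.16, -0.15 and -0.28. Mon1a, part of the exchange factor for Rab7, gave -0.16, -0.15 and -0.11. Acbd4, which binds acyl-CoA, gave -0.24, -0.21 and -0.27, and Nat8f5, Gm37308 and Xkr7 gave pooled values of -0.43, -0.38 and -0.48. None of these genes passed the adjusted threshold, and the genotypes overlapped in every treatment for each.

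Genes called from 2 treatments were then followed in the mice of the third. Vehicle with FLX mice called 48 genes, 46 higher and 2 lower. Of these, 17 kept their sign in IMN mice (35.4%, against 54.4% of all genes tested). The 17 include Gm43794, whose difference of 2.2e-16 in IMN mice is 0 within rounding. Vehicle with IMN mice called 18 genes, 17 higher and 1 lower, of which 6 kept their sign in FLX mice (33.3%, against 52.1%). Several called genes lay near the floor, such as Gm42908, listed at 0 in 8 of 8 Brd1+/- and 7 of 8 WT IMN libraries. Their sign in the third treatment rests on few values, so the shares in IMN and FLX mice are descriptive only. IMN with FLX mice called 36 genes, 32 lower and 4 higher, of which 8 kept their sign in vehicle mice (22.2%, against 41.96%). Some genes kept their sign with an unadjusted limma p under 0.05 in the third treatment. There were 2 in IMN mice (4.17% of the 48), 3 in FLX mice (16.7% of the 18) and 1 in vehicle mice (2.78% of the 36). The same shares over all genes tested were 2.43%, 8.98% and 2.54%. Brd1 was among the genes so followed each time, with Gm25720 in IMN and FLX mice and Gm48740 in FLX mice besides. Gm25720 and Gm48740 lay near the floor and entered the tests through the genotype where they were higher. In FLX mice Gm25720 was listed at 0 in 8 of 8 WT and 5 of 8 Brd1+/- libraries (unadjusted p = 0.0494, limma). There Gm48740 reached at most 0.31 TPM (unadjusted p = 0.0318, limma).

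The 36 genes called from the drug-treated mice together included Cacng2 and Cacng7, auxiliary subunits of AMPA receptors, Chrna4, a nicotinic receptor subunit, Adra1b, an adrenergic receptor, and Chga, a secretory granule protein. These were picked for description after their values were seen. Their log2 differences over IMN and FLX mice were -0.62, -0.31, -1.08, -1.05 and -0.49, and in vehicle mice 0.02, 0.03, -0.03, 0.13 and 0.10. Genotype was not balanced over sample codes in the drug-treated mice, where the 9 libraries with the highest codes were all WT. The part of the codes in these differences was not tested. Across all 27944 genes, the within-treatment differences had a Pearson r of 0.26 between IMN and FLX, -0.11 between vehicle and IMN and -0.13 between vehicle and FLX. These describe genes of the same libraries, which are not independent replicates.

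Within single treatments, 1.46% of genes were called in vehicle, 0.0179% (5 genes) in IMN and 0.104% (29 genes) in FLX mice, and Brd1 was the only gene called in all 3 (0.00358% of genes tested; adjusted p of 0.0128, 0.00151 and 0.0448, limma). Of the vehicle calls 401 were higher (1.44%) and 7 lower in Brd1+/- mice, whereas 26 of the FLX calls were lower (0.093%). The 29 FLX calls became 2 without WT FLX replicate 1 and 178 without Brd1+/- IMN replicate 5, whose group shares the estimate of the spread. More genes were above 0 in the Brd1+/- vehicle libraries, with a mean of 26271 ± 802 (SD, n = 8) against means of 24667 to 25173 in the IMN, FLX and WT vehicle groups. Summed oligodendrocyte markers had medians of 2100 TPM in WT vehicle and 5996 TPM in Brd1+/- vehicle libraries, astrocyte markers 1682 and 2014 TPM, and microglia markers 449.9 and 554 TPM, and their part in the vehicle calls was not tested. With Brd1, the genes AY036118, mt-Tl2 and mt-Th made up the 4 called in at least 2 treatments (0.0143%), the latter 3 in vehicle and IMN mice. The mitochondrial tRNA genes mt-Tl2 and mt-Th had opposite signs, 1.06 and 1.21 in vehicle against -1.50 and -1.63 in IMN mice. The interaction test called 257 genes (0.92%), of which 36 were multi-exon protein-coding (0.232% of such genes). Of the 257, 205 had their largest absolute difference in vehicle mice, 5 of them multi-exon protein-coding. For 45 it lay in FLX mice, 31 of them such genes, and for 7 in IMN mice, 0 of them such genes.

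The strongest interactions lay in vehicle mice. Rn7s1 and Rn7s2, copies of 7SL RNA, the RNA component of the particle that guides secreted proteins, had medians of 2.96 and 2.74 TPM in WT and 89.9 and 92.2 TPM in Brd1+/- vehicle libraries, with no overlap. In IMN and FLX mice their medians lay between 2.69 and 5.89 TPM in either genotype. Gm42908, Gm10538 and Gm37899 were likewise high in Brd1+/- vehicle libraries, where their medians were 0.59, 0.54 and 1.12 TPM. They reached 0.1 TPM in 8 Brd1+/- libraries each and in 1, 1 and 2 WT libraries, so they entered the test through the group where they were high. These 5 genes had no shared difference. The 4 tested copies of 7SL and 7SK RNA had 0 called in the pooled comparison and 4 higher at an unadjusted p under 0.05 (4.97% of all genes tested). Their median was 1.72, with 5.09, 0.39 and -0.05 in vehicle, IMN and FLX mice. Rn7s1 and Rn7s2 are copies with nearly equal values, so they are not separate evidence. In a separate list, the 4 tested transcripts of the ribosomal RNA repeats had 1 called, 3 higher at an unadjusted p under 0.05 and a median of 0.56. AY036118, which was called, lies within CT010467.1 on the same strand.

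The list for the BRD1 acetyltransferase complexes held partners of BRD1 together with scaffolds of related complexes, such as Jade2, Brpf1 and Brpf3. The other genes of this list did not follow Brd1. Of 12 members tested, Brd1 alone was called, and the smallest unadjusted p among the rest was that of Jade2 (log2 difference -0.08 ± 0.04 SE, adjusted p = 0.601, limma). Kat7 and Kat6a, the catalytic subunits, differed by -0.05 and 0.06, and the paralogues Brpf1 and Brpf3 by 0.05 and 0.04. The median over the list was 0.05, beside 0.01 over all genes tested. For multi-exon protein-coding genes with a mean of at least 1 TPM, the 95% interval of a difference reached 0.20 to either side in the median.

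Genes near Brd1 were examined because they share its chromosome segment. Of 40 genes tested within 1 Mb, 0 were called in limma, and 6 were lower at an unadjusted p under 0.05 with 0 higher (3.57% and 4.97% of all genes tested). They were Mapk12, Klhdc7b, Mapk11, Panx2, Ncaph2 and Trabd. Mapk12, a p38 MAP kinase, averaged 4.77 TPM in WT and 2.73 TPM in Brd1+/- mice, with log2 differences of -0.04, -1.13 and -1.37 in vehicle, IMN and FLX mice. Mapk11, another p38 kinase, gave -0.37, -0.65 and -0.85.

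Among the remaining lists, the 13 genes of the unfolded protein response all had pooled log2 differences below 0 (median -0.09), as did 47.9% of all genes tested, with 0 called and Ddit3, the 1 gene lower at an unadjusted p under 0.05, nearest to the threshold (adjusted p = 0.469, limma). Of these 13 genes, 7 had the same sign in the 3 treatments (53.8%, against 23.5% of all genes). The 8 choroid plexus markers all had differences above 0 (median 0.88), as did 52.1% of all genes tested, with 0 called in limma. Of these markers, 2 were higher at an unadjusted p under 0.05 (Ttr and Folr1), as were 4.97% of all genes tested. The sign was the same in the 3 treatments for 6 markers (75%, against 23.5% of all genes). The summed level of the 8 markers ran from 10.6 to 29798 TPM in WT (median 22.8) and from 16.5 to 29158 TPM in Brd1+/- libraries (median 46.8), and 6 Brd1+/- and 3 WT libraries exceeded 1000 TPM. Without those 9 libraries Brd1 differed by -0.56, and 3 genes were called in limma, with Brd1 and Gm48740 kept of the 6 called before. With marker scores as covariates 39 genes were called, the 6 among them. Oligodendrocyte markers had medians of 1.51, -0.47 and -0.56 in vehicle, IMN and FLX mice, and the 20 immediate-early genes -0.80, 0.21 and 0.59, so neither list had a common direction. The 34 monoamine genes (median -0.01), 81 ribosomal protein genes (0.01) and 13 mitochondrial mRNAs (0.07) had 0 called members in limma. At an unadjusted p under 0.05, 2 monoamine genes were higher and 2 lower, 1 ribosomal protein gene was lower, and 0 mitochondrial mRNAs passed. Of all genes tested, 4.97% were higher and 3.57% lower at that level.

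The remaining lists also had 0 called members in limma, and their counts at an unadjusted p under 0.05 stand beside 4.97% higher and 3.57% lower of all genes tested. The 12 glucocorticoid receptors and targets had a median of 0.09, with 3 higher at an unadjusted p under 0.05. The 23 genes of Gq signalling (0.01) and the 16 CREB and neurotrophin genes (-0.06) had 2 and 1 lower at that level. The 10 nuclear-retained noncoding RNAs (-0.07) had 1 in each direction, and the 14 amygdala neuron markers (0.13) had 1 higher. The amygdala neuron markers had medians of -0.04, -0.05 and 0.81 in vehicle, IMN and FLX mice. Their summed level ran from 1035 to 3970 TPM over the 48 libraries, and that of striatal projection neuron markers, of a neighbouring region, from 203 to 11933 TPM. No member passed an unadjusted p under 0.05 among the sex steroid receptors (median -0.04) and the markers of oligodendrocytes (0.16), astrocytes (0.04), microglia (0.04), endothelium (-0.08), striatal projection neurons (0.18) and red blood cells (0.29), nor among the mitochondrial tRNA genes (-0.03) and Y-linked genes (0.01).

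Vehicle and drug-treated mice carry separate ranges of sample codes, and among the drug-treated mice the 9 libraries with the highest codes are all WT. What the codes stand for is not stated. Because the ranges are separate, a difference between vehicle and drug-treated mice, the interaction included, cannot be told apart from the range of codes. The term for the range split the vehicle codes and the drug codes each into a lower and an upper part. The upper drug part held those 9 WT libraries together with 5 Brd1+/- libraries, so it adjusts for their codes only in part. With a term for the range of codes 2 genes were called, Brd1 and Gm25720, while AY036118, Gm48740, Gm45265 and Gm37879 lost their calls (adjusted p from 0.0612 to 0.0875, limma).

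**Figure D4:**
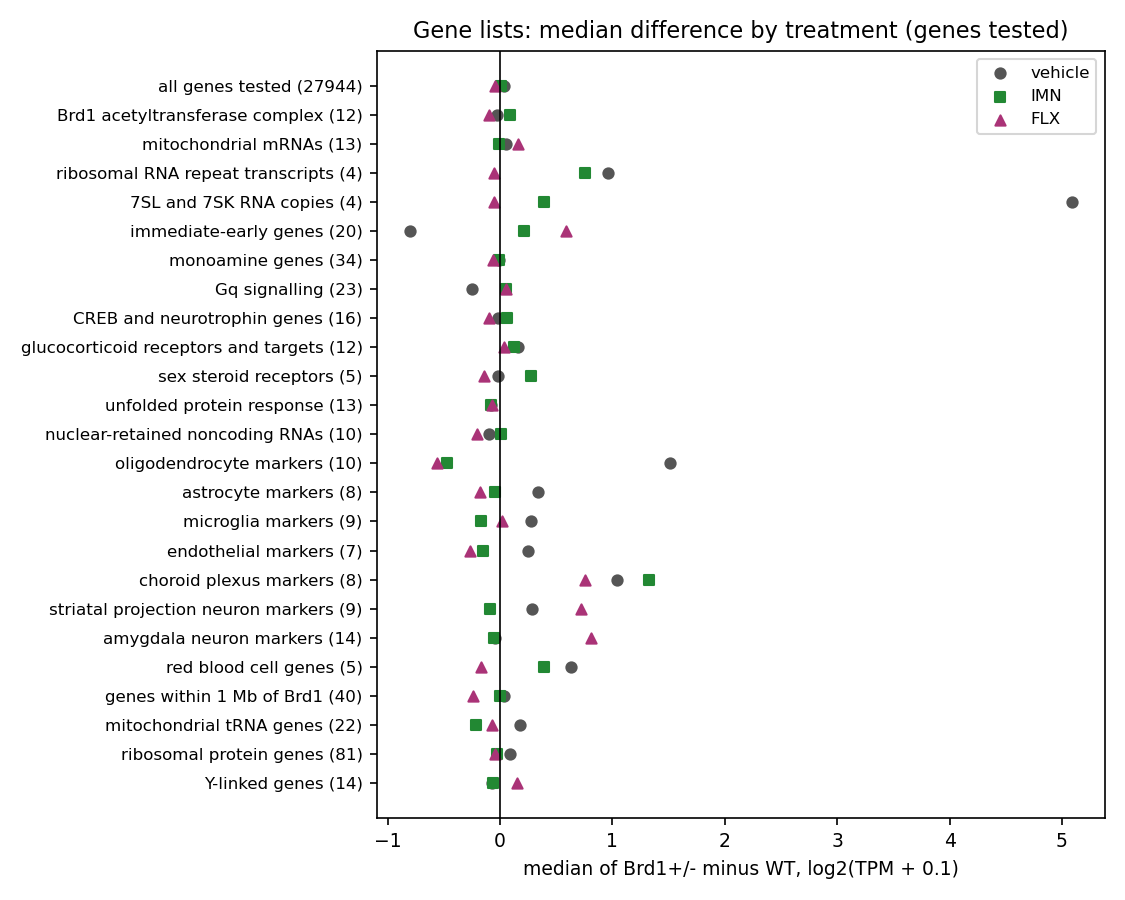
Median log2 difference Brd1+/- minus WT (horizontal axis, log2(TPM + 0.1)) of each gene list within vehicle, IMN and FLX mice, with the number of genes tested in brackets. The choroid plexus markers lie above 0 in the 3 treatments, while the oligodendrocyte markers and the immediate-early genes change side between vehicle and drug-treated mice.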

How the data were processed

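RNA was measured in amygdala punches of 48 mice. Per the labels and the study's methods, the authors made TruSeq libraries, processed reads with FastQC and Trimmomatic (versions not given), aligned them to GRCm38 with HISAT2 2.1.0, quantified genes with StringTie 1.3.4 and deposited TPM values, scaled within each library to a common sum (999524 to 999772 here). A rise in abundant transcripts therefore lowers all others. Depth per library is unknown from TPM, so no counting interval was computed; 23420 to 27252 genes were above 0. Counting by strand is not stated. The series' design text names the striatum, caudate putamen and anterior cingulate cortex in place of the amygdala; the sample labels and the study's methods were followed.

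Values were taken as log2(TPM + 0.1), which understates the change of low genes. Of 52636 genes, 27944 with at least 0.1 TPM in at least 8 libraries were tested in limma 3.58.1 (R 4.3.3; eBayes with a trend, two-sided) with treatment as a block, Benjamini-Hochberg adjusted; a 6-group fit gave within-treatment and interaction tests. The authors had compared groups with edgeR on counts, which TPM does not allow. Single values used permutation tests in SciPy 1.17.1 (Python 3.11.15). Annotation was GENCODE M21 (52489 IDs matched, 147 not). The code was tested on simulated data. The members and lists were chosen with earlier results of these data known. Named genes were Brd1, the called and list-called genes, the 2 nearest the threshold on either side and the 5 strongest interactions. Genes with an unadjusted p under 0.01, one sign and a size ratio of at least 0.5 filled up to 10 per direction at a mean of at least 1 TPM. Gm37879, Gm48740 and Gm45265, below that mean, were named because they were called. Alternatives covered pseudocount, filter, scaling, variance model, weights, blocks, covariates, gene class, treatments and each library left out; leaving out 9 choroid-rich libraries was chosen after the data were seen.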

Additional observations from a re-analysis of the deposited data

Results flagged for a closer look

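A library stood apart from the other 7 of its group in 29 of 186 gene and group combinations (15.6%), by a gap to its neighbour, as a share of the group's range in TPM, above Dixon's critical value for 8 samples. Chance flags about 1 in 20 groups, the TPM of low genes are skewed, and on the log2 scale 17 were flagged. The gap as a share of the range is given for each.

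For Gm48740 it was 0.789 in WT vehicle (replicate 1), 0.676 in Brd1+/- IMN (replicate 7) and 0.625 in WT FLX (replicate 8). For Gm25720 it was 0.716 in WT vehicle (replicate 8) and 0.556 in Brd1+/- FLX (replicate 3). For Gm37879 it was 0.600 in WT vehicle (replicate 2), 1 in WT IMN (replicate 7) and 1 in WT FLX (replicate 7). For AY036118 it was 0.797 in Brd1+/- vehicle (replicate 3) and 0.605 in Brd1+/- IMN (replicate 6). For Lypd6b it was 0.572 in WT vehicle (replicate 2), 0.540 in Brd1+/- IMN (replicate 5) and 0.630 in WT FLX (replicate 7). For CT010467.1 it was 0.774 in Brd1+/- vehicle (replicate 3) and 0.613 in Brd1+/- IMN (replicate 6). For Rn7s1 it was 0.740 in Brd1+/- FLX (replicate 1). For Rn7s2 it was 0.740 in Brd1+/- FLX (replicate 1). For Gm25776 it was 1 in WT IMN (replicate 7), 0.608 in WT FLX (replicate 4) and 0.527 in Brd1+/- FLX (replicate 5). For Gm42908 it was 1 in WT IMN (replicate 5). For Sp3os it was 0.580 in Brd1+/- FLX (replicate 2). For Gm15547 it was 0.613 in Brd1+/- IMN (replicate 1). For Gm10538 it was 1 in WT FLX (replicate 2). For Zfp146 it was 0.613 in Brd1+/- FLX (replicate 3). For Gm37899 it was 0.590 in Brd1+/- vehicle (replicate 4). For Car5b it was 0.548 in WT vehicle (replicate 1). For Acbd4 it was 0.560 in Brd1+/- FLX (replicate 3). For Xkr7 it was 0.714 in WT vehicle (replicate 2). 

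The genotype difference varied between treatments (limma interaction test, adjusted p) for 7 named genes. The adjusted p was 0.0125 for AY036118, 0.0233 for CT010467.1, 1.02e-09 for Rn7s1, 1.39e-09 for Rn7s2, 2.14e-14 for Gm42908, 8.38e-10 for Gm10538 and 6.98e-15 for Gm37899. In AY036118 and CT010467.1 the difference was near 0 in FLX mice, and in the other 5 it was large in vehicle mice. Gm42908, Gm10538 and Gm37899 reached 0.1 TPM in 8 Brd1+/- libraries each and in 1, 1 and 2 WT libraries, and so were tested because of the group where they were high.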

How the results depend on the processing

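Brd1 was called and shared under all 17 other settings (-0.58 to -0.47, largest adjusted p 0.00392) and in 48 of 48 fits without 1 library (largest adjusted p 2.46e-06). Gm37879 was called and shared under 8 of the 17. Gm48740, Gm25720, AY036118 and Gm45265 were called under 11, 12, 10 and 7. Of the results for single named genes, 486 kept their side of the threshold, 27 lost it, 26 gained it and 0 reversed. Counts over 1.5 times from 6 pooled calls, 2 shared genes, 1.46%, 0.0179% and 0.104% of genes called in vehicle, IMN and FLX, 0.92% called for interaction, and 1, 2 and 3 genes followed with the same sign and p under 0.05 in vehicle, IMN and FLX were as follows. With a pseudocount of 0.01 TPM there were 4 shared genes, 0.941% vehicle calls and 0.519% interaction calls. With a pseudocount of 1 TPM there were 10 pooled calls, 0.465% FLX calls and 1 gene followed in FLX. With no filter on low values there were 1.82% vehicle calls. With at least 1 TPM in at least 8 libraries there were 3 pooled calls, 1 shared gene, 0.157% vehicle calls, 0.594% FLX calls, 0.109% interaction calls, 1 gene followed in IMN and 1 gene followed in FLX. With median-ratio scaling there were 10 pooled calls, 4 shared genes and 0.172% FLX calls. With quantile normalization there were 1 shared gene, 0.78% vehicle calls, 0.222% FLX calls, 0.444% interaction calls and 1 gene followed in IMN. Without a variance trend there were 12 pooled calls, 5 shared genes and 5 genes followed in IMN. With array weights there were 59 pooled calls, 17 shared genes, 0.819% FLX calls, 6 genes followed in vehicle and 4 genes followed in IMN. With the replicate block there was 1 pooled call, 1 shared gene, 0.0107% IMN calls, 0.354% FLX calls, 1 gene followed in IMN and 1 gene followed in FLX. With a term for the range of sample codes there were 2 pooled calls, 1 shared gene, 0.0107% IMN calls, 0.0179% FLX calls and 1 gene followed in FLX. With no treatment term there were 3 pooled calls, 1 gene followed in IMN and 1 gene followed in FLX. With marker scores as covariates there were 39 pooled calls, 9 shared genes, 1.32% FLX calls and 1 gene followed in FLX. With multi-exon protein-coding genes alone there was 1 pooled call, 1 shared gene, 0.0129% vehicle calls, 0.00645% IMN calls, 0.929% FLX calls, 0% interaction calls, 1 gene followed in IMN and 1 gene followed in FLX. Where a treatment was left out, shared meant the same sign and size ratio in the 2 that remained, which is a weaker rule. Without vehicle mice there were 36 pooled calls, 29 shared genes, 0.00764% IMN calls and 0% interaction calls. Without IMN mice there were 48 pooled calls, 8 shared genes, 1.39% FLX calls and 1.71% interaction calls. Without FLX mice there were 18 pooled calls, 9 shared genes and 0.536% interaction calls. Without 9 libraries rich in choroid plexus markers there were 3 pooled calls, 0.00742% IMN calls, 0.0111% FLX calls, 0.397% interaction calls and 1 gene followed in FLX. With a size ratio of at least 0.67 there was 1 shared gene, Gm37879 (ratio 0.73), while Brd1 fell below that ratio (0.66). With the same sign alone there were 5 shared genes. Leaving out 1 library gave 4 to 19 pooled calls, 2 to 10 shared genes, 0.691% to 1.01% interaction calls, 1.09% to 1.68% vehicle calls, 1 to 3 genes followed in vehicle, 0.0108% to 0.0216% IMN calls, 1 to 4 genes followed in IMN, 0.00717% to 0.638% FLX calls, 1 to 4 genes followed in FLX. The 19 pooled calls came without WT vehicle replicate 1, and the 2 and 178 FLX calls without WT FLX replicate 1 and Brd1+/- IMN replicate 5. The numbers did not pair the mice (24 same-numbered pairs correlated from -0.26 to 0.31, and 2 of 24 libraries correlated best with their own number), so the replicate block is no paired test. The causes were not tested. Depth limits are unknown from TPM.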
